A study of Homo sapiens with 4 samples.

Results

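WDR91, RAB22A and RALA are 3 genes of endosomes and small GTPases, taken from the 20033 protein-coding genes on chromosomes 1 to 22, X and Y. Each was followed at the summits that lay within 1000 bp of either end of the gene, where a summit is the position of highest signal in an interval of the deposited lists. The genes were chosen from measured values: WDR91 and RALA from the CDK4/6 inhibitor against its control, and RAB22A from the RB siRNA against its control. Their values in those comparisons, and between the controls, were known beforehand and are given as descriptions. All 3 had exactly 1 such summit in each of the 4 libraries, all at the 5′ end. Genome-wide, 3371 protein-coding genes had one in the inhibitor control, 1548 with the inhibitor, 3465 in the siRNA control and 1328 with RB siRNA. In the same order the lists held 9720, 3206, 10412 and 2553 intervals on these chromosomes, each with 1 summit. Their median widths were 189, 557, 180 and 718 kb. Fewer genes with a summit in a treated library thus go with a shorter list. With an assumed genome size, the background set against the signal held 34562, 9592, 36250 and 7641 read ends in the same order. What part this has in the list lengths was not tested.

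The libraries are CUT&Tag profiles of 22RV1, an established human prostate cancer cell line grown in serum-supplemented RPMI-1640. There was 1 library per group: cells treated with PD0332991 (palbociclib, an inhibitor of the kinases CDK4 and CDK6), the control group of that treatment, cells with RB knocked down by siRNA, and the control group of that knockdown. Dose, duration, vehicle, siRNA sequence and antibody target were not given in the sources used here. Per the labels' protocols, chromatin was fixed and sonicated. The deposited intervals together covered 3.03 to 3.06 Gb, nearly the whole genome, in each library, so a summit here is the highest point of a stretch and need not mark enrichment. No difference has a replicate check, so every comparison below is between 2 libraries, not 2 conditions. No value here measures RB, so the knockdown was not checked. Of 10 prostate luminal marker genes, FOXA1 alone had a gene-end summit, in 3 libraries, and 8 blood and endothelial markers had none in any library. Over all protein-coding genes 6.63% to 17.3% had one in a given library, so counts this small do not describe the cells. These summits are not expression.

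Endosomes are sorting compartments whose identity is set by small GTPases, proteins that switch between a GTP-bound active and a GDP-bound inactive state. RAB22A belongs to the RAB5 subfamily and acts in sorting and recycling from early endosomes. WDR91, a WD repeat protein, works with WDR81 to limit the phosphoinositide kinase complex of early endosomes during their conversion to late endosomes, which are marked by RAB7. RALA is a RAS-related GTPase that drives delivery of vesicles to the plasma membrane through the exocyst tethering complex and is activated by exchange factors such as RALGDS, which are effectors of RAS.

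The promoter windows are shown because all 12 summits lay between 250 bases before and 50 bases after a start site. Each printed window runs from 250 bases before the annotated start site to 30 bases after it, which leaves the most downstream summits just past its end, 5′ to 3′ on the strand of the gene (RefSeq, GRCh38.p14). All 3 genes matched the promoter table. Capitals mark GGGGCGGGG, the core of a GC box, on either strand, and in RALA also CCGGAAGT, a sequence of the kind ETS factors bind. The windows are chr7:135211497-135211776 (minus strand) for WDR91, chr20:58309465-58309744 (plus strand) for RAB22A and chr7:39623322-39623601 (plus strand) for RALA.
WDR91: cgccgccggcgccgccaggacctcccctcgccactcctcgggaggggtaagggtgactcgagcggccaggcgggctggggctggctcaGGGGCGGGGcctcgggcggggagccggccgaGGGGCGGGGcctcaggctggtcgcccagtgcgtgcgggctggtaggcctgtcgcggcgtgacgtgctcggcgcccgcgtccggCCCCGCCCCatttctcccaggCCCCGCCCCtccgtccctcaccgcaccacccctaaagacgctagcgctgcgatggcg
RAB22A: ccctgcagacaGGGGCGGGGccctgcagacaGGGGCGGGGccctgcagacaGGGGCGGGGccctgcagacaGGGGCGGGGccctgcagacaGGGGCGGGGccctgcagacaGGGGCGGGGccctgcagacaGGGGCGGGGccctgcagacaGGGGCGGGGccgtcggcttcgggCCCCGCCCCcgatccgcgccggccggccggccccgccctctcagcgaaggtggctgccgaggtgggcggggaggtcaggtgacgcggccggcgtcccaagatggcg
RALA: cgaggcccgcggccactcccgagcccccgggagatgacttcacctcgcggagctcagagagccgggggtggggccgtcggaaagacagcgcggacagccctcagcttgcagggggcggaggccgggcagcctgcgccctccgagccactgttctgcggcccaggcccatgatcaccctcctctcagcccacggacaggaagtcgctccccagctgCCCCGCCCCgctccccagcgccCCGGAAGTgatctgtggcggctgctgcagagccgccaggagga

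The window of RAB22A opens with 8 perfect copies of a unit of 20 bases, ccctgcagacaGGGGCGGGG. Within the window the array runs from 58309465, the first base searched, to 58309626 on chromosome 20, so its full length was not seen. All 4 RAB22A summits lay inside it. Among 15842 protein-coding promoters, 7 held a perfect tandem array at least as long inside their windows, at any period from 10 to 60 bases, RAB22A included. How reads from such an array were placed by the aligner was not tested. The full windows ran up to 50 bases after the start. GGGGCGGGG occurred 9 times in that of RAB22A, 4 times in that of WDR91 and 1 time in that of RALA. Of all promoters, 0.0189% held at least 9, 0.821% at least 4 and 21.8% at least 1. The WDR91 copies included one at 135211680 to 135211688, over the summit position of the inhibitor and siRNA control libraries. CCGGAAGT lay 13 to 6 bases before the RALA start site, with the RALA summits 8 to 48 bases away, and 6.03% of promoters held it. TGACGT, the core of the cyclic AMP response element, was found 1 time, in WDR91 (9.50% of promoters). TGACGTCA, CACGTG, TTTCGCGC, TTTGGCGC and CCAAT were searched on both strands and not found in these windows. Over all promoters 2.53%, 8.55%, 0.776%, 0.865% and 36.0% held them, so most promoters lack each of them too. The motifs were chosen with the sequences in view, and a match is a description, not a binding site.

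The summits of RAB22A were placed most tightly. They lay 150 to 176 bp upstream of the start site at 58309715, within 26 bp of each other. PPP4R1L, a transcribed pseudogene, ends at 58309439, so the same summits were also near its end. The RALA summits lay between 21 bp upstream and 42 bp downstream of the start site at 39623572, at an identical position in both controls (39623614). LOC107986785, a long non-coding RNA gene, ends at 39623477, near those summits. For WDR91 the summit was 161 bp upstream of the start site at 135211526 with the inhibitor and in the siRNA control, 122 bp upstream with RB siRNA, and 32 bp downstream in the inhibitor control. The WDR91 summits compared for the inhibitor were thus 193 bp apart. No other protein-coding gene had an end within 1000 bp of these summits.

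**Figure D1:**
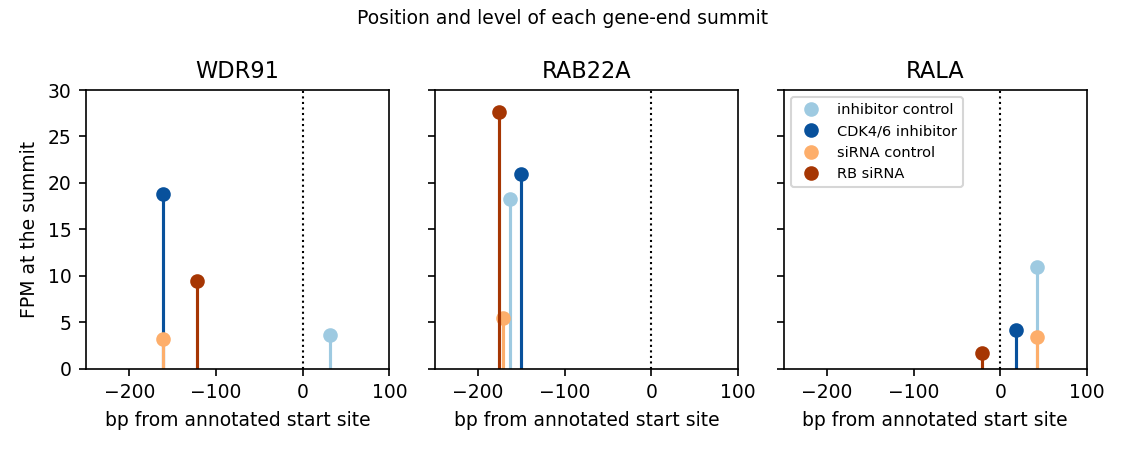
Position and level of the gene-end summit of each gene. The x axis is the distance in bp from the annotated start site (negative is upstream, dotted line at the start), the y axis the level in FPM, and each stem is 1 library. The RAB22A summits share a narrow upstream position, and the WDR91 summit of the inhibitor control lies 32 bp downstream while the others lie 122 to 161 bp upstream.

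Levels are given as FPM: the treatment fragments over a summit, recovered from the deposited fold and −log10 p, per 1000000 recovered treatment fragments of the library. The recovered totals were 2458774 fragments in the inhibitor control, 1909343 with the inhibitor, 3479670 in the siRNA control and 2423284 with RB siRNA, so 1 fragment was worth 0.407, 0.524, 0.287 and 0.413 FPM. These totals rest on an assumed genome size. On average 0.13 to 0.22 fragments covered a position of the genome, a value in which that size cancels. Each interval lists only its highest summit, so a lower one beside it is not seen. Intervals in brackets are exact 95% intervals of counting error only.

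WDR91 had low levels in both controls and higher ones in both treated libraries. Its summit held 9 fragments in the inhibitor control, or 3.66 FPM (1.67 to 6.95), and 36 with the inhibitor, or 18.9 FPM (13.2 to 26.1). In the siRNA control it held 11 fragments, or 3.16 FPM (1.58 to 5.66), and with RB siRNA 23, or 9.49 FPM (6.02 to 14.2). The interval of the inhibitor library did not overlap that of either control, and that of the RB siRNA library overlapped that of the inhibitor control alone among the controls. Since an interval lists its highest position, the 9 fragments of the inhibitor control are also the most that could lie at the upstream position used by the other libraries.

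RAB22A, by contrast, was low in 1 library and high in 3. Its summit held 45 fragments in the inhibitor control, 18.3 FPM (13.3 to 24.5), and 40 with the inhibitor, 20.9 FPM (15.0 to 28.5). It held 19 in the siRNA control, 5.46 FPM (3.29 to 8.53), and 67 with RB siRNA, 27.6 FPM (21.4 to 35.1). The interval of the siRNA control overlapped none of the others. The siRNA control was thus below the other control as well as below the RB siRNA library.

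RALA was highest in the inhibitor control. Its summit held 27 fragments there, 11.0 FPM (7.24 to 16.0), against 8 with the inhibitor, 4.19 FPM (1.81 to 8.26). It held 12 in the siRNA control, 3.45 FPM (1.78 to 6.02), and 4 with RB siRNA, 1.65 FPM (0.45 to 4.23). The last 3 intervals overlapped each other, and that of the inhibitor control stood above those of the siRNA control and RB siRNA libraries. At 4 fragments the RB siRNA level was near the lower end of what the list holds, with 2.35% of its gene-end summits lower.

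**Figure D2:**
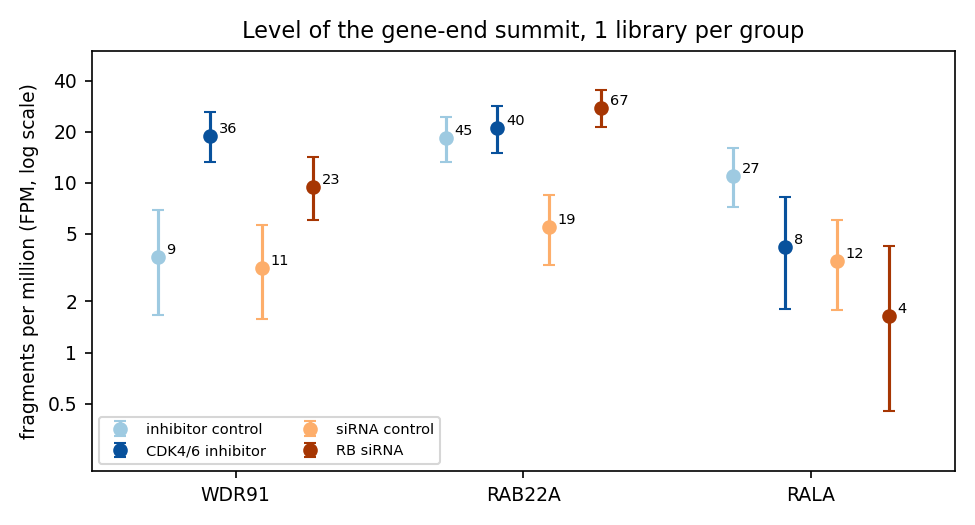
Level of the gene-end summit of WDR91, RAB22A and RALA in the 4 libraries. Points are FPM on a log axis, bars the exact 95% counting interval, and the number beside each point is the recovered fragments. WDR91 is higher in the treated library of each pair, RAB22A is low in the siRNA control alone, and RALA is highest in the inhibitor control.

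Among the gene-end summits of its own library, each gene stood at a different height. WDR91 stood above 35.0% of gene-end summits in the inhibitor control, 77.3% with the inhibitor, 41.5% in the siRNA control and 58.4% with RB siRNA. RAB22A stood above 86.1%, 80.1%, 63.8% and 87.7% in the same order, and RALA above 74.7%, 23.7%, 45.4% and 2.35%. The authors' fold at these summits ran from 1.01 for RALA with RB siRNA to 1.63 for RAB22A in the inhibitor control. The deposited −log10 q was 0 for all 12, so none of them would pass a q filter, and the background behind each fold was the genome-wide one of its library.

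Under the CDK4/6 inhibitor, WDR91 was higher and RALA lower than in the control, the pattern for which they were chosen. The WDR91 level was 5.15 times that of the control (log2 ratio 2.36, 1.284 to 3.604). The median log2 ratio over the 887 summits shared by these libraries with at least 5 FPM was 0.20. Such a minimum, here and below, is on the geometric mean of the levels compared, so a single level can be lower. Of the 605 shared gene-end summits, 7.11% lay above that median shift beyond counting error and 5.62% below, meaning that the interval of their ratio excluded it. WDR91 had the highest ratio of the 605. RALA had a log2 ratio of -1.39 (-2.74 to -0.21) and the second lowest. These ranks restate the choice of the genes. Both genes met the minimum through their higher level: WDR91 had 3.66 FPM in the control and RALA 4.19 FPM with the inhibitor. Among the 774 gene-end summits shared at any level, WDR91 again had the highest ratio and RALA the 3rd lowest.

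RAB22A had not been chosen from the inhibitor comparison, and there it was not distinguishable from the median of shared summits. Its log2 ratio was 0.19 (-0.46 to 0.84), which lay within 0.01 of the median shift of 0.20 and ranked 287 of 605 from the top. The interval leaves room for a ratio of 0.73 to 1.79 times.

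With RB siRNA, RAB22A had 5.06 times its control level, the value for which it was chosen (log2 ratio 2.34, 1.59 to 3.16), the highest of 504 shared gene-end summits. The median shift of this comparison was 0.45, with 5.36% of the 504 above it beyond counting error and 3.97% below. WDR91, which had not been chosen from this comparison, was also higher with RB siRNA, 3.002 times its control (log2 ratio 1.59, 0.49 to 2.77). It had the 4th highest ratio of the 504, and the 5th highest of the 703 gene-end summits shared at any level. WDR91 met the minimum of 5 FPM through its RB siRNA level, with 3.16 FPM in the control and a geometric mean of 5.48 FPM. Its lower bound passed the median shift narrowly, by 0.04 on the log2 scale. Against the median shift of summits with at least 20 FPM, which was 0.50, the bound did not pass it.

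RALA was lower with RB siRNA by its value, at 0.48 times its control (log2 ratio -1.06, -3.15 to 0.66), and this was not distinguishable from the median shift at this depth. The geometric mean of its levels in these libraries, 2.39 FPM, was under the minimum of 5 FPM used for the shares above. Among the 703 gene-end summits shared at any level, where 3.84% lay above and 3.41% below beyond counting error, it had the 8th lowest ratio.

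**Figure D3:**
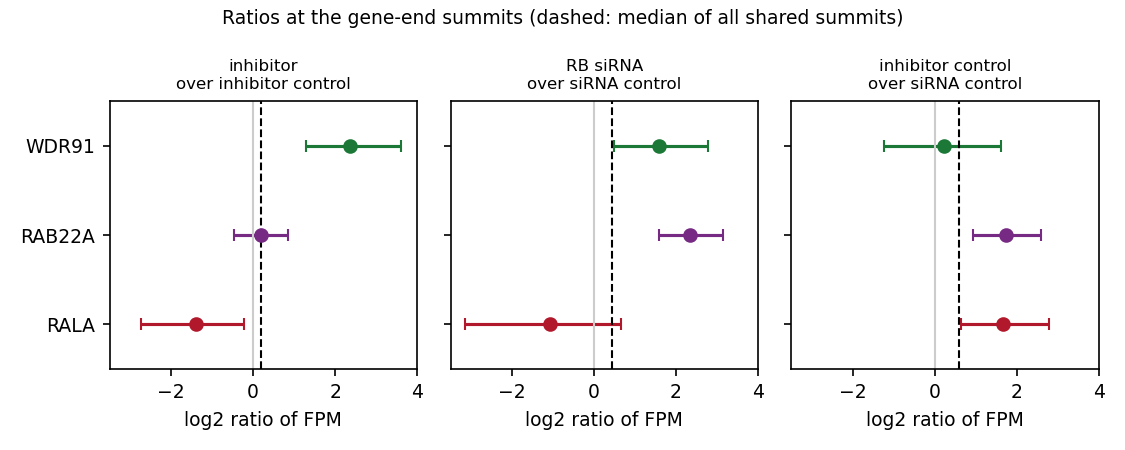
Log2 ratio of FPM at the gene-end summits of the 3 genes in each comparison, with exact 95% counting intervals. The grey line is 0 and the dashed line the median over all shared summits with at least 5 FPM (0.20, 0.45 and 0.59). WDR91 lies right of the dashed line in both treated comparisons, and RAB22A and RALA lie right of it between the controls.

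The 2 treated comparisons share no library, so the 3 genes can be set side by side. Differences between them are exact conditional estimates from the 4 fragment counts, which can depart slightly from a subtraction of the ratios. WDR91 had log2 ratios of 2.36 and 1.59, with an estimated difference of 0.77 (-0.88 to 2.45). RALA had -1.39 and -1.06, with an estimated difference of -0.32 (-2.55 to 2.12). Neither difference was beyond counting error, and the wide intervals do not show that the comparisons gave equal ratios. RAB22A had 0.19 and 2.34, with an estimated difference of -2.13 (-3.19 to -1.12), with -0.25 between the median shifts. Of 339 gene-end summits found in all 4 libraries, 31 (9.14%) lay above the median shift beyond counting error with the inhibitor, and 18 (5.31%) did so with RB siRNA. WDR91 was 1 of the 4 that did both, which were 12.9% of the first set and 22.2% of the second. The others were BRD3OS, CIMAP1D and WDR27, where WDR27 had 737.95 FPM with the inhibitor, many times the WDR91 level. Below the shift, 18 (5.31%) did so with the inhibitor, RALA among them, and 13 (3.83%) with RB siRNA, with 0 in common. Opposite calls also occurred. Of the 31 above with the inhibitor, 3 lay below the shift with RB siRNA. Of the 18 below with the inhibitor, 5 lay above it with RB siRNA.

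**Figure D4:**
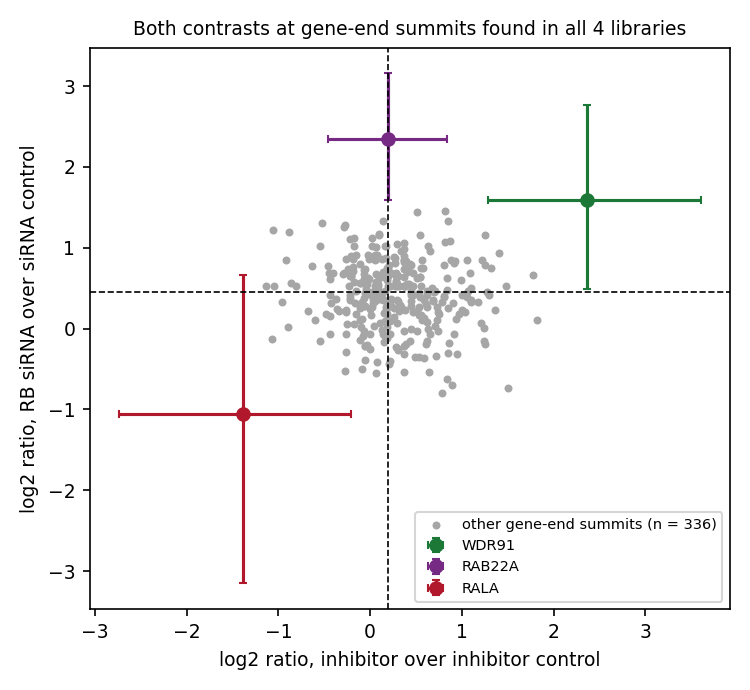
Log2 ratio of the inhibitor over its control (x) against RB siRNA over its control (y) at the 339 gene-end summits found in all 4 libraries. Grey points are the other summits, coloured points the 3 genes with exact 95% counting intervals, dashed lines the median shifts. WDR91 lies to the upper right, RALA to the lower left and RAB22A above the centre.

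The controls themselves differed at RAB22A and RALA. Between the inhibitor control and the siRNA control, the median log2 ratio was 0.59, and 8.04% of 808 shared gene-end summits lay above it beyond counting error and 7.18% below. RAB22A was 3.35 times higher in the inhibitor control (log2 ratio 1.74, 0.942 to 2.601), the 4th highest of the 808, and RALA 3.18 times higher (1.67, 0.64 to 2.79). RALA passed the median shift by 0.05, and did not pass that of summits with at least 20 FPM, which was 0.78. WDR91 had a log2 ratio of 0.21 (-1.24 to 1.62), within counting error of the shift. Each control also enters its own treated comparison. For RAB22A and RALA, the control that differed from the treated library also differed from the other control, in the same direction, while for WDR91 the controls lay close together.

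In order of level, WDR91 was highest with the inhibitor, then with RB siRNA, then in the inhibitor control and the siRNA control. The inhibitor and RB siRNA libraries differed by a log2 ratio of 0.99 (0.20 to 1.81). On a scale on which the 499 summits found in all 4 libraries have equal medians this became 0.57 (-0.23 to 1.39). The RB siRNA library exceeded the inhibitor control on both scales (1.37, 0.21 to 2.67, in FPM), and the controls were within counting error and changed places. For RAB22A, the RB siRNA library exceeded the inhibitor control on both scales (0.60, 0.03 to 1.17, in FPM). It was within counting error of the inhibitor in FPM (0.40, -0.19 to 1.00) and exceeded it on the common scale (0.82, 0.24 to 1.43). The inhibitor and its control were within counting error on each scale, and the siRNA control lay below both on each. For RALA, the inhibitor control exceeded the inhibitor on both scales (1.39, 0.21 to 2.74, in FPM). The other 3 libraries did not differ from each other beyond counting error on either.

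Around the genes, few other gene ends carried summits. WDR91 had 6 protein-coding genes within 250000 bp, of which CNOT4, a ubiquitin ligase that associates with the CCR4-NOT complex, had a gene-end summit in the siRNA control alone (3.45 FPM). RAB22A had 4 and none of them had one. RALA had 3, of which CDK13, a kinase that phosphorylates RNA polymerase II, had one in every library: 17.5 FPM in the inhibitor control, 25.7 with the inhibitor, 19.5 in the siRNA control and 21.9 with RB siRNA. CDK13 did not follow RALA. Its log2 ratios were 0.55 (-0.07 to 1.18) for the inhibitor and 0.16 (-0.38 to 0.70) for RB siRNA, both within counting error of the shift, and -0.16 (-0.75 to 0.41) between the controls, below the shift. The interval over RAB22A was 30.3 kb wide in the siRNA control, with the next summit 15.9 kb away, and 1074 to 2810 kb wide in the other libraries.

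Other RAB genes carried gene-end summits, and none but RAB22A lay beyond counting error in the RB siRNA comparison. Of 64 RAB GTPase genes, 20 had one in the inhibitor control, 12 with the inhibitor, 15 in the siRNA control and 12 with RB siRNA (31.3%, 18.8%, 23.4% and 18.8%). Over all protein-coding genes the shares were 16.8%, 7.73%, 17.3% and 6.63%, and these also stand beside the counts of the lists below. Of all shared gene-end summits, 7.11% with the inhibitor, 5.36% with RB siRNA and 8.04% between the controls lay above the shift. Below it lay 5.62%, 3.97% and 7.18%, each beyond counting error. Shared genes of a list are those with matched summits that met the minimum of 5 FPM. With the inhibitor 0 of 6 shared RAB genes lay beyond counting error. With RB siRNA it was RAB22A alone among 7. Between the controls RAB22A and RAB10, a GTPase of exocytosis and recycling, lay above the shift among 9, RAB10 with 24.0 against 8.05 FPM. The list medians, relative to a shift that is 0 for all shared summits by construction, were 0.02, -0.03 and 0.20. The highest were RAB3A, of regulated secretion, listed in the inhibitor control alone (60.2 FPM), and RAB40C (49.2 FPM in the inhibitor control and 41.7 with RB siRNA).

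Within the RAB5 subfamily, 7 of 9 genes had a gene-end summit in the inhibitor control, 4 with the inhibitor, 5 in the siRNA control and 3 with RB siRNA. These were 77.8%, 44.4%, 55.6% and 33.3%, and the share over all protein-coding genes was also lower in both treated libraries. RAB5B, a paralogue of the early endosome GTPase RAB5A, had 26.8, 41.4, 23.9 and 31.8 FPM in that order, and RAB5A had 5.69, 3.67, 2.59 and 2.89. RAB5B was within counting error of the shift in all 3 comparisons. With RB siRNA it had a log2 ratio of 0.41 (-0.05 to 0.88), beside 2.34 for RAB22A.

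In the RAS, RAL and RAP family, 9, 7, 8 and 8 of 29 genes had a gene-end summit in the same order (31.0%, 24.1%, 27.6% and 27.6%). With the inhibitor, 5 were shared. RALA lay below the shift. With RB siRNA 0 of 4 lay beyond counting error. RALA alone of 5 did so between the controls. The medians relative to the shift were -0.08, -0.06 and -0.42. RRAS, whose end is shared with SCAF1, had the highest level, 46.4, 39.8 and 39.2 FPM in the 3 libraries other than the siRNA control. RALB, the closest relative of RALA, had no gene-end summit listed in any library. Of 22 activators, inhibitors and effectors of RAL, 8, 6, 6 and 1 had a summit (36.4%, 27.3%, 27.3% and 4.55%). In the inhibitor comparison 3 were shared, with none beyond counting error and a median of 0.04 relative to the shift. RALGDS, the exchange factor, had 9.43 against 8.13 FPM. RGL1, whose end is shared with ARPC5, had 13.6 against 9.76 FPM.

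Of 21 genes of early to late endosome conversion, 10, 2, 9 and 4 had a gene-end summit (47.6%, 9.52%, 42.9% and 19.0%). WDR91 was the 1 shared gene of the inhibitor comparison. With RB siRNA it was 1 of 2, beside RABEP2, a RAB5 effector (26.8 against 16.1 FPM, within counting error). WDR81, the partner of WDR91, had 41.9 FPM in the control of the inhibitor and 19.8 in that of the siRNA, above the shift between them (log2 ratio 1.08, 0.63 to 1.54). It had no listed gene-end summit in either treated library. Of 16 tethering and retromer genes, 4, 2, 2 and 1 had one (25%, 12.5%, 12.5% and 6.25%). VPS35, the core subunit of retromer, whose end is shared with ORC6, was the 1 gene shared in each comparison. It had 20.7, 17.8, 7.47 and 16.1 FPM and lay above the shift between the controls alone, while VPS26A, another retromer subunit, was listed in the inhibitor control alone (9.35 FPM). Of 58 WDR genes, 20, 7, 16 and 4 had one (34.5%, 12.1%, 27.6% and 6.90%). WDR27 and WDR91 lay above the shift among 5 shared in the inhibitor comparison and among 3 in the RB siRNA comparison. WDR27 and WDR81 did so among 5 between the controls. Of all shared gene-end summits, 7.11%, 5.36% and 8.04% lay above the shift in these comparisons. WDR91 itself was chosen from the inhibitor comparison. WDR6 was listed in the inhibitor control alone (44.3 FPM).

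**Figure D5:**
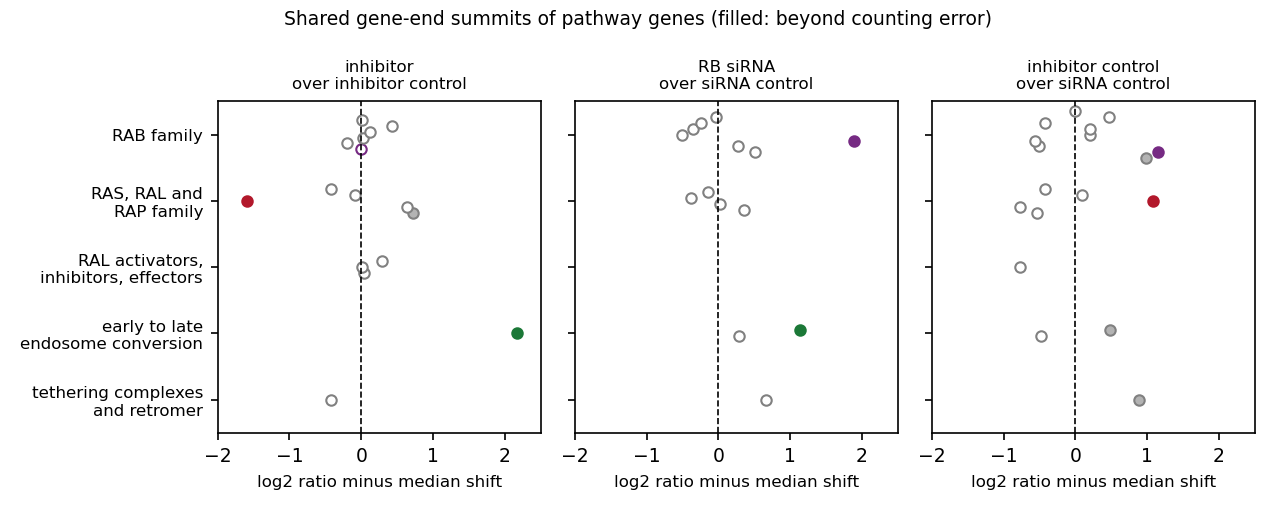
Log2 ratio minus the median shift at shared gene-end summits (geometric mean of at least 5 FPM) of pathway genes, by comparison and for 5 lists, without the WDR genes. Each point is a gene, filled where its counting interval excluded the shift; green is WDR91, purple RAB22A, red RALA and grey any other gene. The open points lie within 1 log2 unit of the dashed line, and RAB22A and WDR91 are the filled points of the RB siRNA panel.

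The genes most like each of the 3 were sought among gene-end summits found in all 4 libraries with at least 5 FPM. Likeness was the Euclidean distance between log2 levels, each centred on its own mean over the 4 libraries. The median distance of the candidates was 1.78 from WDR91, 1.43 from RAB22A and 1.87 from RALA. Nearest to WDR91 were ANKRD50 (distance 0.84), CFAP206 (0.97) and AHR, the aryl hydrocarbon receptor gene (0.98). ANKRD50, which acts in endosomal recycling with retromer, had 6.91, 18.3, 6.04 and 11.6 FPM in the inhibitor control, inhibitor, siRNA control and RB siRNA libraries. Nearest to RAB22A were the end shared by SEPTIN10 and SOWAHC (0.83), TMEM218 (0.84) and LOC124900172 (0.89). Nearest to RALA were DENND4C (1.11), HSPA8, a chaperone gene (1.16), and SSBP2 (1.28). DENND4C, which encodes an exchange factor for RAB10, had 31.7, 19.9, 10.6 and 12.4 FPM. With 4 points of 1 library each, likeness is a description of these levels.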

How the data were processed

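Intervals of 4 CUT&Tag libraries of 22RV1 cells, 1 per group, were used as deposited. The submitters' processing notes name bcl2fastq 2.17, Trimmomatic 0.33, Bowtie2 (version given as 2), MACS2 2.1.0 and hg38, without order or settings. The score that the authors deposited repeats the −log10 p in rounded form. The fold that the authors deposited is a ratio of treatment to background at the summit. The deposited −log10 p and the −log10 q are given there too.

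Fragments were recovered in Python 3.11.15 (scipy 1.17.1) by solving fold and −log10 p with the MACS2 pseudocount of 1. In each list 100% of solutions lay within 0.05 of a whole number. The value of 1 fragment was fitted, and solutions picked, by nearness to whole numbers, so this share is partly built in. On simulated lists the step was tested with known counts. Those lists were built with the same formulas, so they cannot check whether the formulas hold for the deposited lists. Totals, and so the FPM levels, rest on an assumed window of 10000 bp and an assumed genome size of 2700000000 bp. Ratios carry exact conditional binomial 95% intervals, and summits were paired between lists as mutual nearest neighbours up to 250 bp apart. No test between groups was possible with 1 library per group. Gene ends and promoters were taken from RefSeq (GRCh38; the lists use hg38). The members, gene lists and tests were chosen with earlier results of these data known. Genes named beside the members are the 2 highest of each list, those beyond counting error, neighbours within 250000 bp and the 3 most alike, plus RAB5A, RALB, RALGDS and genes shared in small lists, which were added after their values were seen. The RAB list was narrowed to GTPases by symbol after values were seen. Some genes that the naming rule gives are not reported here. Alternatives covered the window, matching, scale, minimum level and a q filter.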

Additional observations from a re-analysis of the deposited data

Results flagged for a closer look

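RAB22A differed between the treated comparisons: the exact conditional estimate of the difference in log2 ratio, inhibitor minus RB siRNA, was -2.13 (95% counting interval -3.19 to -1.12), while the median shifts differed by -0.25. It was picked because the exact counting interval of this difference excluded the difference of the shifts. The gene was chosen from its RB siRNA value, so the difference is a description. Its level in the siRNA control, 5.46 FPM, was also below that in the inhibitor control, 18.3 FPM, and what part that level has in the difference was not tested.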

How the results depend on the processing

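Windows of 500 and 2500 bp at gene ends and matching within 250 or 500 bp left the ratios of the 3 genes unchanged in 36 of 36 repeats. The summit positions fixed this outcome, so it is no check. All member summits lay within 176 bp of a start site, and compared ones were at most 193 bp apart. Matching within 250 bp is also the main setting, and matching within 100 bp was not applied to the 3 genes. Subtracting the median shift at 5 FPM kept every ratio within its main interval. With the shift of summits with at least 20 FPM, 2 calls were lost: WDR91 with RB siRNA (1.09 above the shift) and RALA between the controls (0.89). On the log2 ratio of the authors' fold, WDR91 gave 0.071 for the inhibitor and changed direction with RB siRNA (-0.053). RAB22A changed sign for the inhibitor, within its counting interval (-0.44), and gave 0.018 with RB siRNA and 0.45 between the controls, and RALA 0.29 between the controls. By construction 1 fragment adds a different amount to that fold in each list: 0.0141 in the inhibitor control, 0.00502 with the inhibitor, 0.0104 in the siRNA control and 0.00315 with RB siRNA, beside a pseudocount of 1. A q of at most 0.05 left 0 of the 12 summits, so that alternative gave no value. The share of gene-end summits beyond counting error moved from 12.7% to 20.5% for the inhibitor and from 9.33% to 13.8% for RB siRNA at a minimum of 20 FPM. Between the controls it moved from 15.2% to 19.4% at 10 FPM and to 27.3% at 20 FPM. No paired analysis was possible because each group has 1 library and the labels give no replicate numbers. Depth limits the ratios of RALA and WDR91, with 4 to 27 and 9 to 36 fragments per library.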
